A study of Mus musculus with 4 samples.

Results

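The genes described here were 10 named genes of lipid handling, Apoe, Lpl, Abca1, Abcg1, Lipa, Fabp4, Fabp5, Cd36, Trem2 and Gpnmb. All 10 were found by symbol among the 27998 genes of the deposited count table, of which 16898 had at least 1 UMI (a unique molecular identifier, which counts 1 captured RNA molecule). Apoe was chosen by its measured levels, for the large difference between the libraries in P-I cells, so that difference is given as a description and supports nothing by itself. The cells were CD11b+ splenocytes of mice, profiled by CITE-seq, which reads RNA and antibody-derived tags (ADT) in the same cell. The steady state library came from mice that received 0 injections of the cytokine GM-CSF, and the GM-CSF library from mice that received 3 once-daily subcutaneous injections of 10 µg, with the spleen taken 24 hours after the last. All mice of the study were between 8 and 12 weeks of age, but neither the strain nor the number of animals behind each library is stated for this experiment. With 1 library per condition, library and treatment cannot be told apart, no test across samples was possible, and every interval below is a 95% interval that covers counting error only.

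Macrophages and monocytes take up lipid from lipoproteins, dying cells and blood, break it down in lysosomes, and store it, burn it or send it back out. Cholesterol leaves through the ABC transporters Abca1 and Abcg1 onto acceptors such as apolipoprotein E, the product of Apoe, and the nuclear receptors LXR switch on these genes when sterols accumulate. Fatty acids enter through lipoprotein lipase (Lpl) and the scavenger receptor Cd36 and are carried inside the cell by the fatty acid binding proteins Fabp4 and Fabp5. Trem2 is a lipid-sensing receptor, Lipa the acid lipase of the lysosome, and Gpnmb a glycoprotein of lysosomal membranes that marks lipid-loaded macrophages.

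The steady state library held 4827 cells with a median of 3371 UMIs and the GM-CSF library 6804 cells with a median of 4916. The deposited labels named 12 cell types, among them MoMacDC_c1, c2, c4 and c5 and Progenitor DC, which together form the Focus bundle of monocytes, macrophages and dendritic cells (DCs), with 2135 steady state and 3940 GM-CSF cells in 17 bundle clusters. Within the bundle, CD115hi cells had been gated by the authors on ADT levels into the Ly6C+ classical monocytes P-I, the Ly6C- MHC II- P-II, the Ly6C- MHC II+ CD301b- P-III and the Ly6C- MHC II+ CD301b+ P-IV. The cluster deposited as cDC2-A had 18085 and 18923 CPM (UMIs per 1000000 UMIs of the group) of 5 NK cell markers in the steady state and GM-CSF libraries, with none of the 5 at 0, and 19.8 and 15.9 CPM of 4 cDC2 markers, so its label was not borne out by its genes. The same NK cell list stood at 11214 CPM in the 43 steady state cells of MoMacDC_c4, against 0.349 in its 595 GM-CSF cells. Of the cell barcodes, 8 occurred in both libraries.

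Apoe lies on chromosome 7 (GRCm38, 19696109 to 19699188, minus strand), Lpl on 8 (68880491 to 68907448, plus), Abca1 on 4 (53030787 to 53159895, minus) and Abcg1 on 17 (31057675 to 31117988, plus). Lipa lies on chromosome 19 (34492318 to 34527474, minus), Cd36 on 5 (17781690 to 17888801, minus), Trem2 on 17 (48346401 to 48354147, plus) and Gpnmb on 6 (49036546 to 49070929, plus). Fabp4 and Fabp5 both lie on chromosome 3, at 10204088 to 10208576 on the minus strand and 10012548 to 10016607 on the plus strand. Fabp5 has near-identical pseudogene copies in the mouse genome. In the count table Fabp5 was the only symbol that starts with these letters, and copies under other names were not looked for. How reads of the copies were counted is therefore uncertain. The whole table held between 6 UMIs (Gpnmb) and 25618 UMIs (Apoe) of each gene. The RefSeq promoter table (GRCm38.p6) had windows for 6 of the 10 genes. The 250 bases before the start are printed for Apoe, Cd36 and Trem2, the members with a window that were at least 2-fold lower across the GM-CSF bundle, 5′ to 3′ on the strand of the gene, with each match to a searched motif in capitals.

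Apoe, chr7:19699189-19699438, minus strand: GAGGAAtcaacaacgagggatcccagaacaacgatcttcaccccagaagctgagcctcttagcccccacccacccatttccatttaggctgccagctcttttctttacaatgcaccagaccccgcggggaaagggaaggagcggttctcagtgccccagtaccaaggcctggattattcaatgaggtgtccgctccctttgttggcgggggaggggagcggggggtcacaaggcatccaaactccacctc
Cd36, chr5:17835897-17836146, minus strand: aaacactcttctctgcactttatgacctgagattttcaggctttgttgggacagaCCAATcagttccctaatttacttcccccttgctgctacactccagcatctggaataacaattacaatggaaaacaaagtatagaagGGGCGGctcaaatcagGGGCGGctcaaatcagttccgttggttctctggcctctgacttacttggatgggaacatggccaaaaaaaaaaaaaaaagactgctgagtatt
Trem2, chr17:48346151-48346400, plus strand: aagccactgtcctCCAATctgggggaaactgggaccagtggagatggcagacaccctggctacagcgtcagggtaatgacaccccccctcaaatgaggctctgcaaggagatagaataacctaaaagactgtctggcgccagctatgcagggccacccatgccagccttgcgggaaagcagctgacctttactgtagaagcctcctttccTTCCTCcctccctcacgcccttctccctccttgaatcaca

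The motifs searched on both strands were the core GAGGAA bound by the myeloid factor PU.1, the GC box GGGCGG, the CCAAT box CCAAT, the TATA box TATAAA and the LXR element of the DR4 type. The table held 3 windows for Apoe, of which the one at the annotated gene start is printed. This Apoe window held GAGGAA 250 bases before the start, at its very edge, and the Trem2 window held it on the opposite strand 40 bases before the start. Of all 32851 windows of this length, 23.3% held GAGGAA. The Cd36 window, which starts inside the annotated gene, held GGGCGG 109 and 93 bases before the start and CCAAT 195 bases before it, and 32.7% and 33.8% of all windows held these letters. Neither TATAAA (12.4% of windows) nor the DR4 element (0.0152%) occurred in the 3 printed windows. Of the Apoe windows not printed, 1 held TATAAA 96 bases before its start and on the opposite strand 100 bases before it, and the other held GAGGAA 132 bases before its start. A match is a description of the letters and not a bound site.

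In P-I cells Apoe stood at 1219 CPM in the steady state library (1332 UMIs in 139 cells, 1154 to 1286) and at 12.2 CPM in the GM-CSF library (17 UMIs in 187 cells, 7.10 to 19.5). The level after GM-CSF was 100.0-fold lower (62.2 to 172), the lowest ratio among the 5774 genes with at least 50 UMIs over both groups, which follows from how Apoe was picked. Of the steady state P-I cells, 80.6% (73.0 to 86.8%) had an Apoe UMI and 36.0% had 10 or more, with a median of 5 and a highest of 57 UMIs in a cell. Of the GM-CSF P-I cells 5.88% (2.97 to 10.3%) had an Apoe UMI, and none had more than 3. The groups thus differed over most of their cells and not through a few: the highest cell held 4.28% of the steady state Apoe UMIs.

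Free RNA from lysed cells gives UMIs in cells that do not express a gene, so T cells, which should lack Apoe, served as a measure of it. B cells had been planned as a second measure, but stood at 790 and 1749 CPM of Apoe in the steady state and GM-CSF libraries. The measure of free RNA thus rests on T cells alone. Steady state T cells had 90.8 CPM of Apoe, and 7.47% of them had a UMI at a median depth of 3747 UMIs, against a median of 7264 in P-I. With each cell thinned to 1000 UMIs, 44.2% of steady state P-I cells (35.8 to 52.9%) and 4.62% of T cells kept an Apoe UMI, so the P-I share stood above that background. In the GM-CSF library 0 of 39 T cells had an Apoe UMI, which allows a share of up to 7.69%, and the P-I share of 5.88% at a median depth of 7232 lay within that limit. After thinning, 0.546% of GM-CSF P-I cells kept a UMI. By the 39 T cells alone, Apoe in GM-CSF P-I cells could not be told apart from free RNA. Other types of this library lay on both sides of P-I, with Neutrophil at 2.23 CPM on 11 UMIs and Granulocyte at 61.7 CPM. The 3 counts that 0 UMIs allow in GM-CSF T cells correspond to 30.9 CPM, above the 12.2 CPM of P-I.

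The check of the P-I label found the classical monocyte list (6 genes, none at 0) at 4549 CPM in the steady state and 1572 CPM in the GM-CSF library. The non-classical monocyte list (6 genes, none at 0) stood at 1228 and 363 CPM, and the erythroid list at 121 CPM with none of 4 at 0 and at 1.43 CPM with Hbb-bt and Car2 at 0. The red pulp macrophage list, whose cells carry much Apoe, stood at 282 and 357 CPM, with 2 of its 12 genes at 0 in each library and C1qa at 0 in both. Much of that sum was Adgre1 (116 and 186 CPM), while Vcam1 had 1 and 0 UMIs and Cd5l 0 and 1. The parts of these lists in the differences between P-I groups were not tested.

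**Figure D1:**
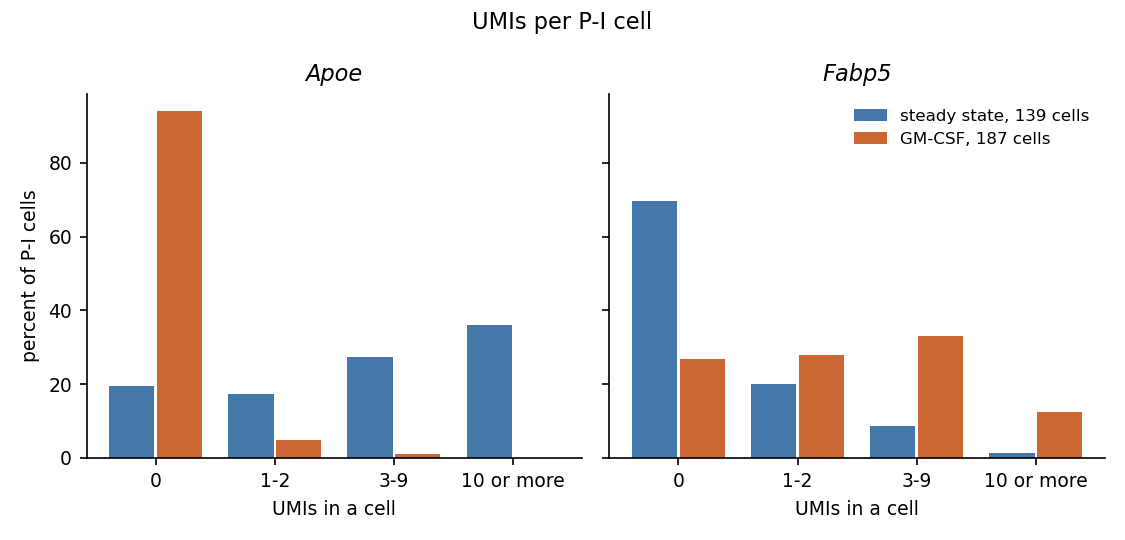
Percent of P-I cells (y axis) with 0, 1 to 2, 3 to 9 or 10 or more UMIs of Apoe (left) and Fabp5 (right) in the steady state library (blue, 139 cells) and the GM-CSF library (orange, 187 cells). Apoe moved to the class without a UMI after GM-CSF (19.4% and 94.1% of cells), and Fabp5 away from it (69.8% and 26.7%).

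Beside Apoe, the other members went in both directions in P-I. Over all genes with at least 50 UMIs, 4.99% were at least 2-fold higher and 7.12% at least 2-fold lower after GM-CSF by CPM ratio with 0.5 counts added to each sum. Of the 10 members 7 passed the minimum, 2 of them were higher (Lpl and Fabp5), 2 lower (Apoe and Cd36) and 3 within 2-fold (Abcg1, Lipa and Trem2). This contrast chose Apoe, and nothing is read from the shares. The median ratio over genes with at least 50 UMIs in each group was 0.899, a log2 shift of -0.15.

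Of the efflux transporters, Abcg1 stood at 93.3 CPM in steady state and 176 CPM after GM-CSF, a ratio of 1.89 (1.49 to 2.40), and passed 2-fold at 2.10 when scaled by the median ratio. Abca1 had 8 and 12 UMIs, too few for a call. Abcg1 thus did not share the direction of Apoe in these cells.

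Of the uptake genes, Lpl stood at 39.4 CPM (28.5 to 53.0) in steady state and 212 CPM (188 to 237) after GM-CSF, a ratio of 5.38 (3.89 to 7.59), and the share of cells with an Lpl UMI was 12.2% and 48.7%. Cd36 stood at 36.6 and 14.3 CPM on 40 and 20 UMIs, a 2.55-fold lower level after GM-CSF (1.46 to 4.61). The Cd36 call rested on few UMIs. Without the cell with the most UMIs in each group, or without called doublets, Cd36 no longer reached 50 UMIs, although its level after GM-CSF was still 2.34-fold and 3.77-fold lower. After thinning its ratio was 0.943 on 5 and 4 UMIs. Trem2 stood at 46.7 and 28.7 CPM, 1.63-fold lower (1.05 to 2.53), and the interval of the GM-CSF to steady state ratio reached 1 with doublets left out (0.433 to 1.05), with median-ratio scaling (0.440 to 1.05) and without the cell with the most UMIs (0.405 to 1.02). After thinning the Trem2 ratio was 1.06 on 7 and 5 UMIs.

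Of the lysosomal genes, Lipa stood at 123 and 176 CPM, a ratio of 1.43 (1.16 to 1.78), and Gpnmb had 0 and 1 UMI. Gpnmb was thus at or under the floor of 3 counts in both groups. Of the fatty acid binding proteins, Fabp5 stood at 104 CPM (86.1 to 125) in steady state and 499 CPM (463 to 538) after GM-CSF, a ratio of 4.78 (3.92 to 5.88). Fabp4 had 41 UMIs in 9.35% of steady state P-I cells (37.5 CPM) and 3 UMIs in 1 GM-CSF P-I cell (2.15 CPM), a sum below the 50 UMIs needed for a call. Fabp4 and Fabp5 thus showed values of opposite direction.

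**Figure D2:**
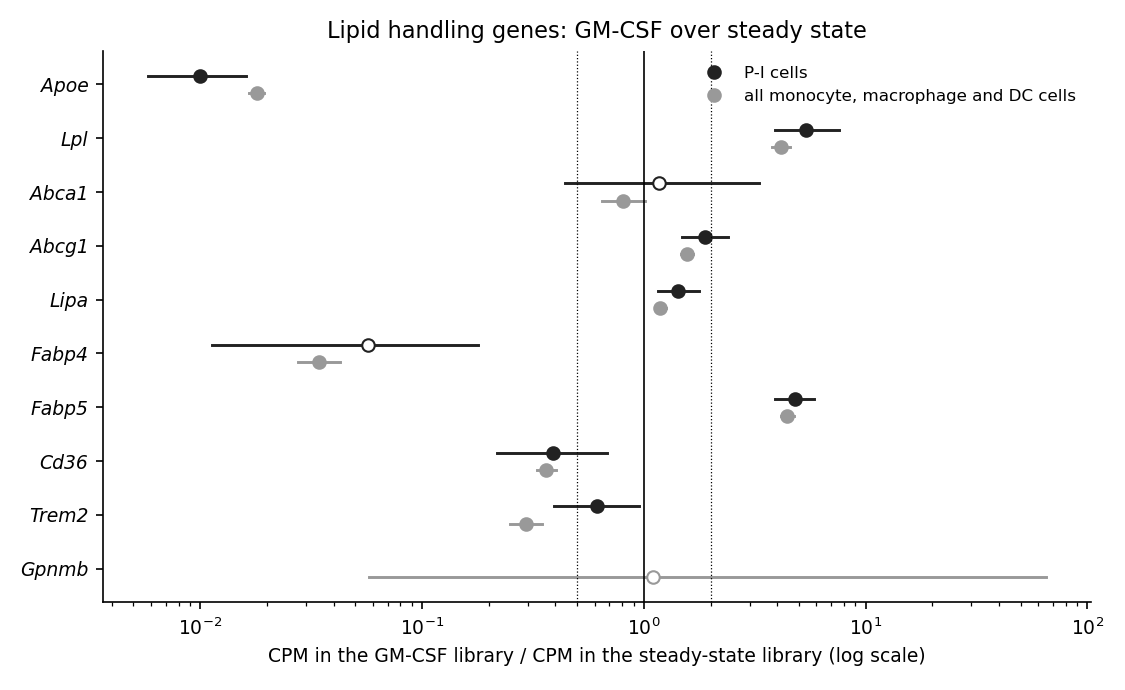
CPM in the GM-CSF library over CPM in the steady state library (log x axis) for each gene, in P-I cells (black) and in all cells of the Focus bundle (grey), with 95% counting intervals as lines. Filled points had at least 50 UMIs over both sums, open points fewer, genes with 0 UMIs in a group have no point, and dotted lines mark 2-fold. Lpl and Fabp5 lie to the right of 2-fold in both populations, and Apoe and Cd36 to the left.

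Across the whole Focus bundle, 8.66% of 10860 genes were at least 2-fold higher and 9.46% at least 2-fold lower after GM-CSF. Of the members 9 passed the minimum, with 2 higher, 4 lower and 3 within 2-fold. Apoe stood at 1484 and 26.7 CPM, 55.6-fold lower (51.6 to 60.0). Fabp4 stood at 97.4 and 3.36 CPM, 29.0-fold lower (23.5 to 36.3). Trem2 was 3.40-fold lower (28.6 and 8.42 CPM) and Cd36 2.75-fold lower (67.7 and 24.6 CPM). Lpl was 4.14-fold higher (33.5 and 139 CPM) and Fabp5 4.45-fold higher (63.3 and 281 CPM). Abcg1 (1.57), Lipa (1.18) and Abca1 (0.809) stayed within 2-fold as ratios of GM-CSF to steady state.

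Bundle cells outside the CD115hi gate share no cell with P-I, though they come from the same 2 libraries. They made up 1952 of the 2135 steady state and 3256 of the 3940 GM-CSF bundle cells, so calls shared with the whole bundle are no separate result. In them 8.35% of genes were at least 2-fold higher and 9.18% at least 2-fold lower. The members gave 2 higher (Lpl and Fabp5) and 4 lower (Apoe, Fabp4, Cd36 and Trem2). Apoe was 51.3-fold lower there (47.4 to 55.5), at 1499 and 29.2 CPM. The Apoe difference was therefore not limited to the gate that picked it.

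Because the mix of clusters differed between the libraries, the members were compared within each of the 12 bundle clusters with at least 20 cells in both. Apoe was lower in 12 of 12 clusters, by 3.08-fold in cluster 12 (187 and 60.7 CPM) up to 206-fold in cluster 1 (2027 and 9.86 CPM). Clusters 2 and 5, which held most of the steady state P-I cells with cluster 6, gave 91.0-fold (66.7 to 128) and 140-fold (78.1 to 280), and cluster 6 gave 67.3-fold. In cluster 4, where the non-classical monocyte list stood at 4903 CPM in steady state and the classical list at 291 and which had the highest steady state Apoe level, Apoe stood at 2714 and 451 CPM, a 6.02-fold lower level (5.18 to 7.03). The Apoe level was thus lower in all 12 clusters by uneven sizes, and cluster 4 kept the highest Apoe level of the GM-CSF bundle. Not all 12 started above free RNA. Steady state cells outside the CD115hi gate stood at 70.9 CPM in cluster 8 (22 UMIs) and 97.6 CPM in cluster 3 (68 UMIs). T cells, the measure of free RNA, stood at 90.8 CPM in steady state and 0 after GM-CSF. Steady state cells of cluster 8 also carried NK cell markers. The part of free RNA in these clusters was not tested.

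The members that passed the minimum in each cluster are counted here beside the share of all its genes past 2-fold. Cluster 2 had 3 of 8 members higher (3.82% of all its genes) and 4 lower (6.92%). In cluster 5, 3 of 8 were higher (3.25%) and 3 lower (6.75%). Cluster 6 had 2 of 6 members higher (3.48% of all its genes) and 1 lower (8.64%). In clusters 2, 5 and 6, those with most classical monocyte genes, Apoe was among the lower members, and in cluster 6 it was the only one. Apoe was chosen for its fall in P-I, so nothing is read from the balance there. In cluster 4, 2 of 8 were higher (2.32%) and 4 lower (6.29%). Cluster 7 had 2 of 5 members higher (5.86% of all its genes) and 1 lower (7.83%). In cluster 8, 5 of 6 were higher (12.5%) and 1 lower (11%). Cluster 8, whose steady state cells carried NK cell markers, had its background among the highest in both directions. Cluster 1 had 2 of 6 members higher (7.23% of all its genes) and 1 lower (6.74%). In cluster 3, 1 of 6 were higher (6.3%) and 1 lower (4.56%). Cluster 10 had 3 of 5 members higher (15.8% of all its genes) and 1 lower (9.15%). Apoe was among the lower members in every one of these clusters. In cluster 9, 1 of 4 were higher (4%) and 2 lower (7.71%). Cluster 11 had 2 of 7 members higher (5.07% of all its genes) and 3 lower (9.08%). In cluster 12, 1 of 4 were higher (4.99%) and 1 lower (5.63%).

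Lpl was higher in 10 of 10 clusters that passed the minimum. The highest Lpl levels after GM-CSF were in clusters 6 and 5 (343 and 330 CPM, against 82.3 and 54.9 in steady state). Where steady state cells had 0 Lpl UMIs, as in cluster 3, the GM-CSF level was at least 17.1-fold higher than the floor of 3 counts. Fabp5 was higher in 11 of 12 clusters, with the largest fold among clusters with steady state UMIs in cluster 4 (55.7 and 910 CPM, 16.3-fold, 13.1 to 20.4) and a ratio of 1.84 in cluster 3, which did not pass. Cluster 10 had 0 Fabp5 UMIs in steady state and 52 after GM-CSF, a level at least 1.83-fold higher against the floor of 3 counts. Both genes thus had the same direction in clusters of classical and of non-classical monocytes.

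Fabp4 passed the minimum in 4 clusters and was lower in all 4. Its highest level was in cluster 4, at 545 CPM in steady state and 160 CPM after GM-CSF, 3.41-fold lower (2.64 to 4.47). In cluster 11 it had 140 UMIs in steady state and 0 after GM-CSF, at least 20.2-fold lower against the floor of 3 counts. Cd36 shared this place: cluster 4 had 342 CPM in steady state and 152 CPM after GM-CSF, 2.25-fold lower (1.73 to 2.98). Of 7 clusters that passed for Cd36, 4 were lower, 1 was higher and 2 were within 2-fold, and the higher one (cluster 8) rested on 1 UMI in steady state cells that carried NK cell markers. Over the 14 steady state groups of at least 20 cells the levels of Fabp4 and Cd36, as log2(CPM + 10), had a Pearson r of 0.928, and over the 14 GM-CSF groups 0.667, where all groups of a library share its depth and free RNA.

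Trem2 behaved differently from the bundle-wide value. In clusters 5 and 6, the classical monocytes where it was highest, it stood at 44.3 and 46.6 CPM (ratio 1.05, 0.742 to 1.47) and at 52.3 and 56.8 CPM (ratio 1.08, 0.760 to 1.53) in the steady state and GM-CSF libraries. In cluster 2 it was 3.69-fold lower after GM-CSF (37.2 and 10.1 CPM, 2.24 to 6.35). Cluster 5 held 442 steady state and 141 GM-CSF cells and cluster 6 held 297 and 108, so the clusters with most Trem2 were a larger share of the steady state bundle. The part of this mix in the bundle value was not tested.

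Abcg1 passed the minimum in 12 of 12 clusters, with 4 higher and 1 lower. It was 2.39-fold higher in cluster 5 and 2.24-fold lower in cluster 9, a cluster of the Progenitor DC type. Lipa was higher in 1 of 12, cluster 8, and within 2-fold in the other 11. Abca1 passed only in cluster 4, with 0 GM-CSF UMIs, and Gpnmb in none.

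**Figure D3:**
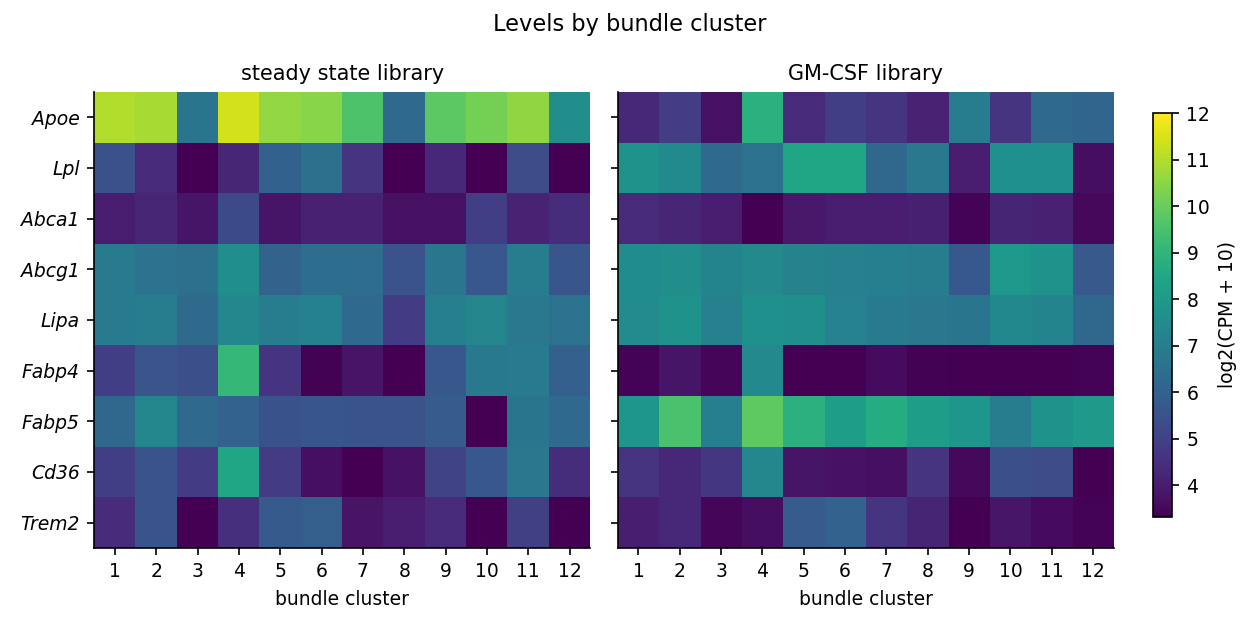
Level of each gene as log2(CPM + 10) (colour) in the 12 bundle clusters (x axis) with at least 20 cells in both libraries, steady state on the left and GM-CSF on the right. Colours are to be compared between clusters and libraries within a row. The Apoe row darkens in all 12 clusters and stays brightest in cluster 4, while the Lpl and Fabp5 rows brighten.

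Within the GM-CSF library, the gates P-I (187 cells), P-III (126) and P-IV (313) were compared, which the study places on a path from classical monocytes to GM-CSF-induced DCs. From P-I to P-III, 1.11% of genes were at least 2-fold higher and 2.71% at least 2-fold lower, and from P-III to P-IV 1.91% and 1.01%. None of the 4 and 5 members that passed the minimum in these steps was called. Apoe stood at 12.2, 32.5 and 7.12 CPM in P-I, P-III and P-IV on 17, 24 and 16 UMIs, and 9 of the 24 in P-III came from 1 cell.

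Between the ends of this path, P-IV against P-I, 3.63% of genes were at least 2-fold higher and 3.53% at least 2-fold lower. Of the 5 members that passed, Cd36 was higher and Fabp5 lower. Cd36 stood at 14.3, 28.4 and 56.9 CPM in P-I, P-III and P-IV, a P-IV level 3.97-fold that of P-I (2.47 to 6.72). Fabp5 stood at 499, 274 and 165 CPM, a P-IV level 3.02-fold below that of P-I (2.66 to 3.44). These values ran in opposite order over the gates, but Cd36 rested on 20, 21 and 128 UMIs. Its intervals in P-I (8.76 to 22.1 CPM) and P-III (17.6 to 43.4 CPM) overlapped. Of the Cd36 UMIs, 1 cell held 28.6% in P-III and 1 cell 18.0% in P-IV.

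Lpl stood at 212, 284 and 151 CPM in P-I, P-III and P-IV, with P-IV 1.88-fold below P-III (1.58 to 2.24), and 22.4% of the P-III and 22.7% of the P-IV Lpl UMIs came from 1 cell each. Abcg1 (176, 189 and 196 CPM) and Lipa (176, 164 and 137 CPM) were within 2-fold over the gates. Trem2 had 40, 7 and 3 UMIs (28.7, 9.46 and 1.33 CPM), too few for a call, with a P-IV level 21.5-fold below P-I and a wide interval (6.85 to 109). Of the P-IV cells 0.958% had a Trem2 UMI.

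The steady state P-III and P-IV gates held 12 and 7 cells. Apoe stood at 2080 and 1568 CPM in them, but 1 cell held 74.0% of the 169 P-III UMIs. Bundle cluster 0, which held 668 GM-CSF but 14 steady state cells, had the highest Cd36 level of the GM-CSF bundle outside cluster 4, at 79.4 CPM. It held 0 Trem2 UMIs in steady state and 1 after GM-CSF.

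**Figure D4:**
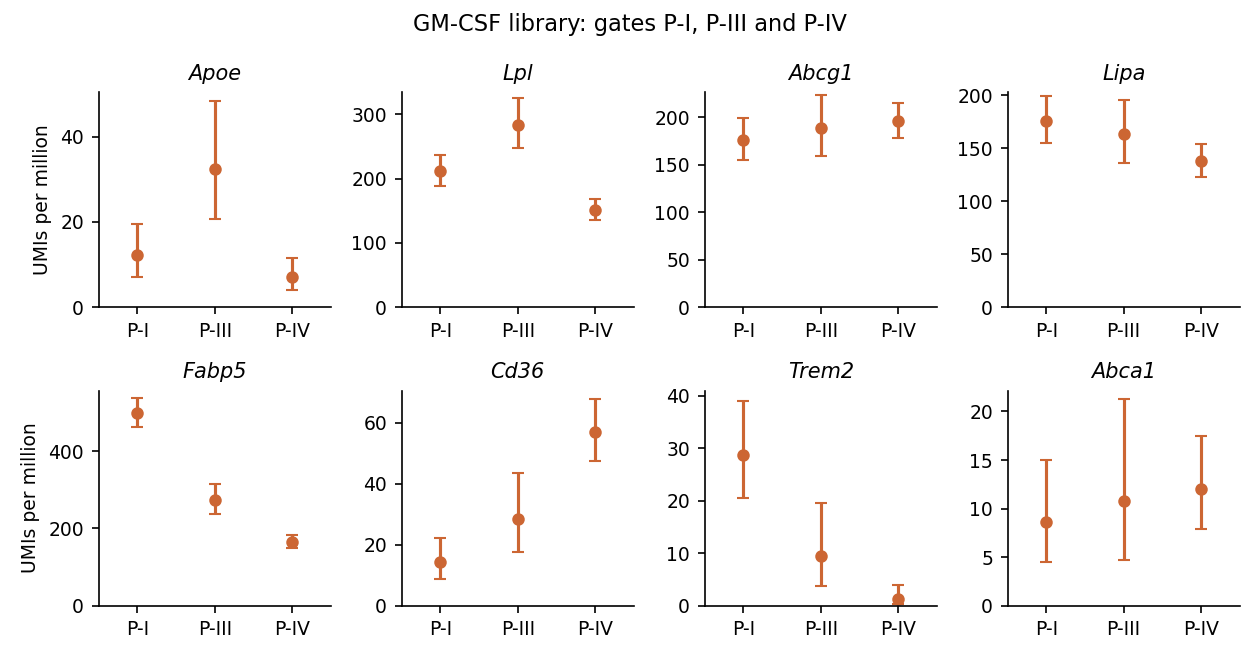
CPM (y axis, linear, from 0, scaled for each gene) of 8 genes by gate (x axis) in the GM-CSF library, with 95% Poisson intervals as bars. Fabp5 runs from 499 to 165 CPM and Cd36 from 14.3 to 56.9 CPM over the gates, while Abcg1 stays between 176 and 196 CPM.

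Over the 12 deposited cell types of the steady state library, Apoe was highest in the 25 cells labelled Macrophage (2948 CPM, 2615 to 3311), followed by MoMacDC_c5 (2517), MoMacDC_c1 (1605) and B cell (790). Each of the first 3 stood above the next beyond counting error. B cell, Activated DC (647), MoMacDC_c2 (537) and Progenitor DC (499) overlapped with their neighbours in this order. Granulocyte (165), Neutrophil (152), cDC2-A (99.0), T cell (90.8) and MoMacDC_c4 (53.4) formed the low end. Of these, T cell is the measure of free RNA used here, and the part of free RNA in the others was not tested. The MoMacDC_c4 level is that of cells with NK cell markers.

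After GM-CSF the order changed. Macrophage cells stayed first at 3132 CPM (148 UMIs in 22 cells, 2648 to 3679), a ratio to steady state of 1.06 (0.865 to 1.30). The Macrophage label was borne out by the red pulp macrophage list, at 31229 and 30454 CPM with none of 12 genes at 0 in either library. B cell was the next at 1749 CPM, 2.21-fold above its steady state level, with 48.1% of 79 cells carrying an Apoe UMI against 35.7% of 196. Thinned to 1000 UMIs these shares were 39.0% and 21.1%. B cell markers stood at 5326 and 5438 CPM in the 2 B cell groups, and red pulp macrophage markers at 114 and 91.6 CPM, with 6 and 8 of 12 genes at 0.

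The other cell types had less Apoe after GM-CSF. MoMacDC_c1 stood at 16.0 CPM, 100.1-fold below steady state (84.7 to 119), MoMacDC_c2 at 7.41 CPM (72.5-fold), MoMacDC_c5 at 481 CPM (5.23-fold) and Progenitor DC at 87.2 CPM (5.72-fold). Neutrophil stood at 2.23 CPM (68.3-fold lower) and Granulocyte at 61.7 CPM (2.67-fold lower). T cells and cDC2-A had 0 Apoe UMIs after GM-CSF. The level in T cells, used here as the measure of free RNA, thus moved with that of the bundle, and its part in the differences of the low cell types was not tested.

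**Figure D5:**
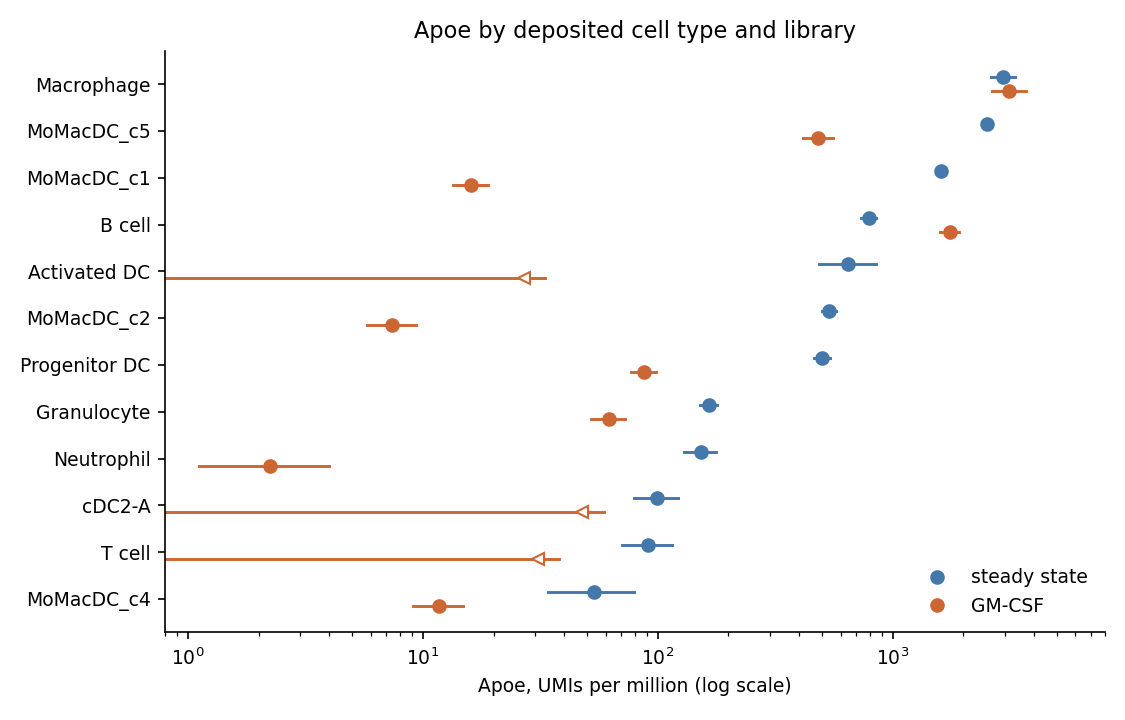
Apoe level in CPM (log x axis) by deposited cell type, in the steady state (blue) and GM-CSF (orange) libraries, with 95% Poisson intervals as lines. Open triangles mark cell types with 0 UMIs, drawn at the 3 counts that a count of 0 allows, and intervals that reach 0 run off the left edge. Macrophage cells overlap between the libraries, B cells lie higher after GM-CSF, and the other types lie lower.

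Among the deposited cell types, the members that passed the minimum were counted in the same way. MoMacDC_c1 had 3 of 9 members higher (5.48% of all its genes) and 4 lower (7.26%). In MoMacDC_c5, 1 of 7 were higher (2.43%) and 4 lower (6.73%). MoMacDC_c2 had 3 of 8 members higher (6.02% of all its genes) and 2 lower (6.81%). Apoe, chosen for its fall in P-I, was among the lower members of MoMacDC_c1, c5 and c2, so nothing is read from their balance. In MoMacDC_c4, 5 of 7 were higher (12.7%) and 1 lower (12%). Progenitor DC had 1 of 4 members higher (5.81% of all its genes) and 1 lower (8.06%). In Macrophage, 0 of 3 were higher (4.68%) and 0 lower (9.13%). In MoMacDC_c4 the steady state side is that of cells with NK cell markers. B cell had 1 of 6 members higher (1.41% of all its genes) and 2 lower (13.8%). In Granulocyte, 1 of 5 were higher (7.29%) and 1 lower (3.2%). Neutrophil had 2 of 4 members higher (3.62% of all its genes) and 1 lower (2.48%). Macrophage cells had no member past 2-fold among the 3 that passed. In Activated DC, 1 of 2 were higher (7.98%) and 1 lower (15.4%). T cell had 0 of 3 members higher (1.83% of all its genes) and 1 lower (10%). In cDC2-A, 0 of 2 were higher (3.52%) and 1 lower (13.5%). The lower member in T cell and cDC2-A was Apoe.

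Fabp4 and Cd36 in steady state were highest in MoMacDC_c5 (536 and 342 CPM), the cell type of bundle cluster 4, each beyond the counting interval of the next cell type. After GM-CSF, Cd36 stood at 153 CPM there and at 48.0 CPM in MoMacDC_c2, where it was 2.64-fold above steady state (1.81 to 3.99). Cd36 was thus lower in MoMacDC_c1 (2.12-fold) and c5 (2.23-fold) and higher in c2. Lpl in MoMacDC_c2 stood at 6.26 and 153 CPM, a ratio of 24.4 (13.2 to 51.0) on 10 steady state UMIs.

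Fabp5 was highest in Activated DC in both libraries, at 1294 CPM in 8 steady state cells and 5005 CPM in 20 GM-CSF cells, a ratio of 3.87 (3.14 to 4.81). It was higher after GM-CSF outside the bundle as well, in Neutrophil (18.3 and 90.6 CPM, 4.94-fold, 3.16 to 8.17) and Granulocyte (136 and 311 CPM, 2.29-fold, 2.04 to 2.57). T cells had 7 and 0 Fabp5 UMIs. Trem2 was highest in MoMacDC_c1, at 40.4 and 19.2 CPM in the steady state and GM-CSF libraries, and no T cell carried it.

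Further genes of lipid handling were counted in 6 lists, some of which hold members, in P-I cells, where 4.99% of all genes were at least 2-fold higher and 7.12% at least 2-fold lower. Apoe, chosen on this contrast, is counted in the lists that hold it. Of 15 genes of LXR targets and cholesterol efflux, 11 passed the minimum, 0 were higher and 2 lower, with a median log2 ratio of -0.25 against -0.10 over all genes that passed. The non-member that was lower was Nr1h3, the gene of the nuclear receptor LXR alpha, at 33.0 and 12.9 CPM (2.55-fold, 1.41 to 4.77). The Nr1h3 call rested on only 36 and 18 UMIs and was not checked under other settings. Of 20 genes of cholesterol synthesis and uptake, 12 passed, with a median of -0.23.

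Of 16 lipid uptake receptors and partners, 9 passed, with 1 higher, 2 lower and a median of -0.70. The scavenger receptor gene Msr1 was 2.58-fold lower (99.8 and 38.7 CPM, 1.84 to 3.64). Of 16 genes of lysosomal lipid breakdown 11 passed and 0 were called in either direction, with a median of 0.04. Of 29 genes of fatty acid binding, droplets and oxidation 15 passed, with 2 higher, 0 lower and a median of 0.27, the non-member being the droplet coat gene Plin3 (2.03-fold higher, 1.42 to 2.94).

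Of 18 genes of TREM2 lipid-associated macrophages 14 passed, with 3 higher, 2 lower and a median of 0.43. Itgax, which encodes CD11c, was 3.62-fold higher (43.9 and 159 CPM, 2.64 to 5.06), and the lysosomal protease gene Ctsb 2.32-fold lower (972 and 418 CPM, 2.10 to 2.58). The other 9 genes of this list that passed were within 2-fold.

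The genes whose level over 28 groups of bundle cluster and library was most like that of Apoe were B2m (Pearson r of 0.945 on log2(CPM + 10)), H2-D1 (0.924), Pou2f2 (0.897), Nr4a1 (0.896) and Eif4g3 (0.894), among 9092 genes. B2m and H2-D1 encode parts of MHC class I. Over the bundle, B2m stood at 3056 and 1172 CPM, Pou2f2 at 832 and 116 CPM and Nr4a1 at 596 and 59.2 CPM in the steady state and GM-CSF libraries. Over the 14 steady state groups alone the most similar were Dusp6 (0.964), Cebpb (0.958), Sqrdl (0.945), Tlr7 (0.937) and Slc11a1 (0.925), and none of these 5 was among the first. Over the 14 GM-CSF groups alone they were Jade2 (0.904), Rgs3 (0.896), Aqr (0.892), Gcnt1 (0.884) and Ccnd2 (0.880), a further set, in which Rgs3 stood at 89.2 and 94.9 CPM over the bundle in the steady state and GM-CSF libraries. All such groups share their library, its depth and its free RNA.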

How the data were processed

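Per the labels and the study's methods, the authors sorted CD11b+ splenocytes, made 10x Genomics 3′ v3 libraries, and processed RNA with Cell Ranger 3.0.2 on mm10 and Seurat 3.6.0, and tags with CITE-seq-Count. Cells below 200 or above 5000 genes, or above 15% mitochondrial UMIs, had been removed. The deposited RNA and ADT tables hold raw counts, and cell types, clusters, gates and phases are the authors' labels. The ADT counts were not used in a result here, and of the tables of the bundle alone only the cell labels were used. Strandedness beyond the kit is not given in the sources used here.

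RNA counts were summed per group and divided by the group's total (CPM), with exact Poisson intervals. Ratios carry exact intervals from the binomial share of their counts, and shares exact Clopper-Pearson intervals, at 95%. A gene was called at a CPM ratio of at least 2-fold, with 0.5 counts added to each sum, where both sums held at least 50 UMIs together. The rule was tested on simulated Poisson counts, which hold counting error only and no variation between cells or libraries. PCR copies are collapsed by UMI, and no test across samples was run, since each condition is 1 library. Doublets were called with Scrublet per library (141 and 186 cells) and kept in the main values. The members and lists were chosen with earlier results of these data known. Named non-members were those of each list past 2-fold in P-I, up to 3 per direction, and the 5 genes most like Apoe. Some genes that this rule names are not reported here. Coordinates are from GENCODE on GRCm38. Python 3.11.15, scanpy 1.11.5, scipy 1.17.1, numpy 2.4.6, pandas 2.3.3 and matplotlib 3.10.9 were used.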

Additional observations from a re-analysis of the deposited data

Results flagged for a closer look

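Apoe and Cd36 were at least 2-fold higher after GM-CSF in 1 deposited cell type and at least 2-fold lower in others with at least 20 cells in each library, and with 1 library per condition the difference between cell types was not tested. The CPM ratio of GM-CSF to steady state for Apoe was 2.21 in B cell, and 0.00999 in MoMacDC_c1, 0.0138 in MoMacDC_c2, 0.0146 in Neutrophil, 0.175 in Progenitor DC, 0.191 in MoMacDC_c5, 0.219 in MoMacDC_c4 and 0.374 in Granulocyte. In B cell, 1 cell held 16.2% of the 439 GM-CSF Apoe UMIs and 1 cell held 8.24% of the 692 steady state UMIs. For Cd36 the ratio was 2.64 in MoMacDC_c2, 0.472 in MoMacDC_c1 and 0.449 in MoMacDC_c5. The steady state cells of MoMacDC_c4 carried NK cell markers at 11214 CPM. Their Apoe level was 53.4 CPM on 24 UMIs, with Neutrophil at 152 and Granulocyte at 165 CPM in the same library. Apoe in T cells, the measure of free RNA, was 90.8 CPM in steady state and 0 after GM-CSF. The part of free RNA in the Apoe ratios of these types was not tested.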

How the results depend on the processing

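The ratio of Apoe in P-I cells, GM-CSF over steady state, was 0.0100 and lay between 0.00490 and 0.0111 over 8 alternatives, all below 1. The alternative chosen after seeing the data took off the T cell level, which was 0 in the GM-CSF library and so changed the steady state side only. Thinning to 1000 UMIs gave 0.00490 on 1 and 154 UMIs, outside the interval of the main value, and lowered the share of P-I cells with an Apoe UMI to 44.2% in steady state and 0.546% after GM-CSF. Of the 2 members lower in P-I, 1 (Apoe) was still called with doublets left out, after thinning, without the cell with the most UMIs of the gene and at a minimum of 200 UMIs, in each case with fewer UMIs or a higher minimum. Of the 2 higher, 1 (Fabp5, at a ratio of 7.79 against 4.78) was called after thinning, where Lpl had a ratio of 7.92 but 42 and 4 UMIs, below the minimum, and median-ratio scaling gave 3, adding Abcg1. The 0 members higher in P-III than P-I became 1 with no minimum, and the 0 lower became 1 after thinning, 1 without the cell with the most UMIs (Fabp5 in both) and 2 with no minimum. The 0 higher in P-IV than P-III became 1 with median-ratio scaling, 1 without the cell with the most UMIs (Cd36 in both) and 1 with no minimum. The 0 lower became 2 after thinning and 2 with no minimum. The share of all genes past 2-fold was not computed under the changed settings, so these counts have no background beside them and nothing is read from them. Leaving out bundle clusters 7 and 8, chosen after seeing the data, moved the bundle ratio of Apoe from 0.0180 to 0.0209 and no count. After thinning, Abcg1 in P-I gave a ratio of 4.90 on 39 and 6 UMIs. No paired analysis was possible because each condition is 1 library. Depth limited Abca1, Fabp4 and Gpnmb in P-I, which did not reach 50 UMIs.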
